A study of Arabidopsis thaliana with 12 samples.

Results

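The response of Arabidopsis thaliana seedlings to L-glutamate (L-Glu) was compared between the mutant sid2 and the wild type Col-0, gene by gene, as the effect of L-Glu in sid2 minus its effect in Col-0. All 12 of the 12 libraries entered this difference of effects, and it was computed for all 14897 genes of the deposited table. The 4 groups of 3 libraries each were sid2 with 20 mM L-Glu, sid2 with 20 mM urea, Col-0 with 20 mM L-Glu and Col-0 with 20 mM urea. The seedlings were 14 days old, grown in liquid culture in continuous light, and were sampled as whole seedlings after 48 h of treatment. No untreated group was included, so every effect is L-Glu against urea, and the urea treatment is shared by both genotypes. Genotypes were taken from the sample titles, because the genotype field of the labels reads Col-0 for all samples. The labels give neither the sid2 allele nor whether separate cultures were used for the 3 libraries. The p-values therefore reflect spread between libraries, which may be technical.

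SID2, also called ICS1 and listed as EDS16 in the annotation, encodes the isochorismate synthase that supplies most of the salicylic acid (SA) made in immune responses. SA acts through the NPR receptors and WRKY and TGA transcription factors, and strong immune signalling is known to go along with lower growth. Ribosome production, which takes cytosolic ribosomal proteins and a nucleolar machinery of RNA polymerases, small nucleolar ribonucleoproteins and helicases, is a large part of the cost of growth. In plants many genes of that machinery carry upstream elements called telo boxes and site II elements.

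SID2 transcript was abundant with L-Glu in both genotypes. Its deposited signal, a normalized read abundance, was 7434, 5421 and 7340 in sid2 with L-Glu and 43.3, 29.8 and 65.4 in sid2 with urea. Col-0 libraries had 9615, 7461 and 10896 with L-Glu and 98.3, 100 and 89.6 with urea. The log2 effect of L-Glu was 7.13 in sid2 and 6.53 in Col-0, and their difference of 0.60 (SE 0.333, adjusted p = 0.373) did not pass the test. Since the allele is not given, this level does not check the genotype labels. The signal summed to between 2564533 and 4419987 per library, highest with L-Glu, while the library medians were alike at 74.1 to 77.2. Read depth is unknown, so the number of reads behind a value cannot be given.

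The difference of effects passed the test in 291 genes (limma, adjusted p under 0.05), which is 1.95% of the genes tested. It was higher in sid2 for 191 genes (1.28%) and lower in sid2 for 100 (0.671%). Counts of called members in the gene groups below are to be read against these shares. Differences of these called genes ranged from 0.97 to 3.31 in size on the log2 scale, with a median of 1.51, and 288 of them were at least 2-fold. Over all genes the median difference was -0.04 with an SD of 0.58, and the median SE of 0.35 limits what could be called. At an unadjusted p under 0.05 there were 2511 of the 14897 genes, and at an adjusted p under 0.01 there were 9. Counts at an unadjusted p under 0.05 in the gene groups below are to be read against those 2511 of 14897. The called genes were spread over the chromosomes, from 1.65% of the genes tested on chromosome 4 to 2.15% on chromosome 2.

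The count leaned on single libraries. It was 107, 9 and 98 without sid2 L-Glu library 1, 2 and 3, and 65, 179 and 41 without sid2 urea library 1, 2 and 3. Omitting Col-0 L-Glu library 2 gave 43 calls and omitting Col-0 urea library 2 gave 108, against 242 to 367 for the other 4 Col-0 libraries. The sign of the difference was kept by all 291 genes in each of these 12 fits, which was likely beforehand for genes called from the same libraries. The call was kept in all 12 fits by 9 genes. They are WRKY54, GATA17, PRMT3, AT3G28160, AT1G66180, TRM82, AT1G77940, AT3G22620 and GYRB1, described below with their groups.

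**Figure D1:**
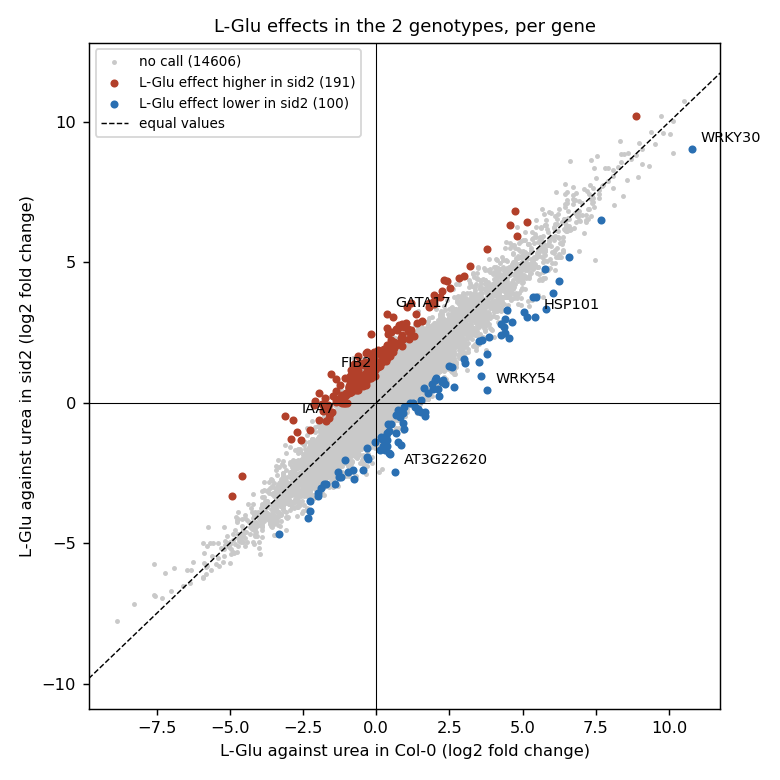
Log2 effect of L-Glu against urea in sid2 (vertical axis) and in Col-0 (horizontal axis), 1 point per gene, for 14897 genes; the dashed line marks equal effects. The 191 genes with a higher effect in sid2 (red) and the 100 with a lower effect (blue) lie above and below the line, among genes that fell as well as genes that rose.

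The called differences took several forms. Both effects were called in the same direction in 110 genes, and the effect in sid2 was the larger in 63 of them and the smaller in 47. The L-Glu effect was called in sid2 and not in Col-0 for 90 genes, and in Col-0 and not in sid2 for 59. In 32 genes both effects were called and ran in opposite directions, 26 of them rising in sid2 and falling in Col-0 and 6 the reverse. Among all genes tested the L-Glu effect itself was called in 64.4% in sid2 (32.0% higher, 32.4% lower) and in 60.1% in Col-0 (29.7% higher, 30.3% lower). Counts of L-Glu effects called in the gene groups below are to be read against these shares.

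Read the other way round, as the genotype difference within each treatment, the called genes differed mostly under L-Glu. The sid2 minus Col-0 difference was larger in size under L-Glu than under urea in 270 of the 291 genes. It was called under L-Glu in 269 genes and under urea in 8. Among all genes tested these shares were 13.3% (7.27% higher in sid2, 6.04% lower) and 0.248% (0.0671% higher, 0.181% lower). The 291 genes were selected for a large gap between both values, so shares above those of all genes follow from the selection. The median genotype difference was 1.31 under L-Glu and -0.19 under urea for the 191 genes higher in sid2, and -1.26 and 0.30 for the 100 lower in sid2.

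**Figure D2:**
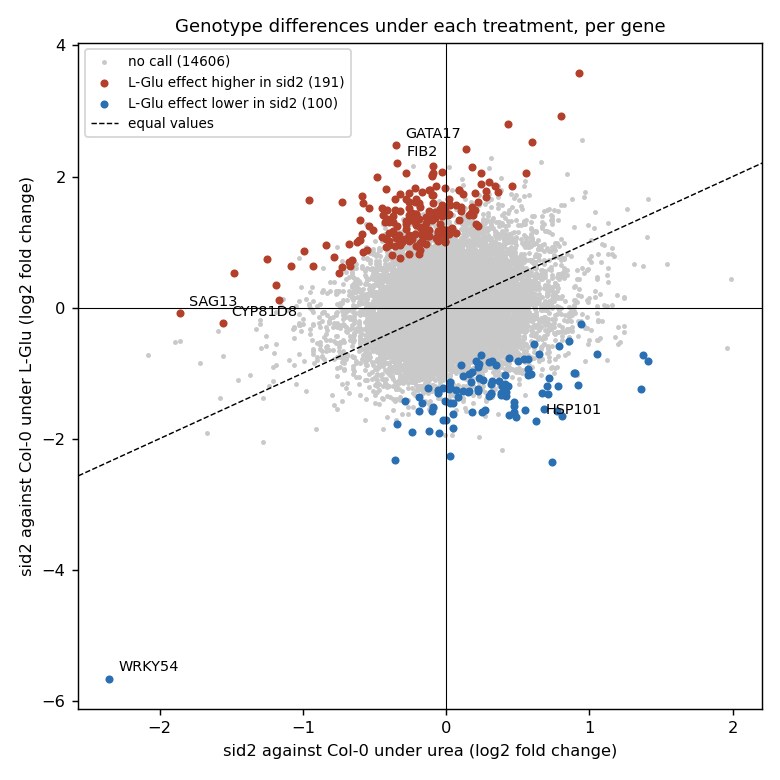
Log2 difference of sid2 against Col-0 under L-Glu (vertical axis) and under urea (horizontal axis), 1 point per gene. Called genes lie mostly above or below the grey cloud, with small values on the urea axis, while SAG13 and CYP81D8 lie at the far left with L-Glu values near 0, and WRKY54 lies apart at -5.66 under L-Glu and -2.35 under urea.

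Genes of the cytosolic ribosome held the largest block of called differences. The L-Glu effect was called lower in 148 of 182 measured genes in Col-0 and higher in 4. In sid2 it was called lower in 44 of them and higher in 16. Over all genes 30.3% were called lower in Col-0 and 32.4% in sid2. Of 206 annotated cytosolic ribosomal protein genes 182 were in the table, and 27 were called higher in sid2 and 0 lower. The estimate was above 0 in 174 of the 182, with a median of 0.90, against 46.5% above 0 and a median of -0.04 over all genes. The median effect of L-Glu on these genes was -0.17 in sid2 and -1.08 in Col-0. Their median sid2 minus Col-0 difference was 0.78 under L-Glu, where 101 were called higher and 0 lower, and -0.11 under urea, where 0 were called either way. In whole seedlings, fewer cells of a type and less RNA per cell cannot be told apart.

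Mean log2 levels over the 182 genes were 5.51, 5.83 and 5.49 in sid2 with L-Glu and 5.71, 6.04 and 5.56 in sid2 with urea. Col-0 libraries had 4.84, 4.64 and 4.99 with L-Glu and 5.81, 5.99 and 5.77 with urea. The 3 Col-0 libraries with L-Glu lay below the other 9, which overlapped. Both subunits took part. In the large subunit 16 of 97 measured genes were called, with a median difference of 0.90, and in the small subunit 9 of 72, with the same median of 0.90. The 182 estimates ranged from -0.82 to 2.39.

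Plastid ribosomal proteins, encoded in the nucleus for the chloroplast ribosome, gave another picture. By limma 0 of the 33 measured members (42 annotated) were called, 5 had an unadjusted p under 0.05, and 11 estimates were above 0. L-Glu lowered 28 of them in sid2 and 30 in Col-0, with a median effect of -3.58 in sid2 and -3.33 in Col-0 and a median difference of -0.17. The smallest p among them was that of AT1G80620, an S15 family gene, with a difference of 1.04 (SE 0.315, adjusted p = 0.0897).

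**Figure D3:**
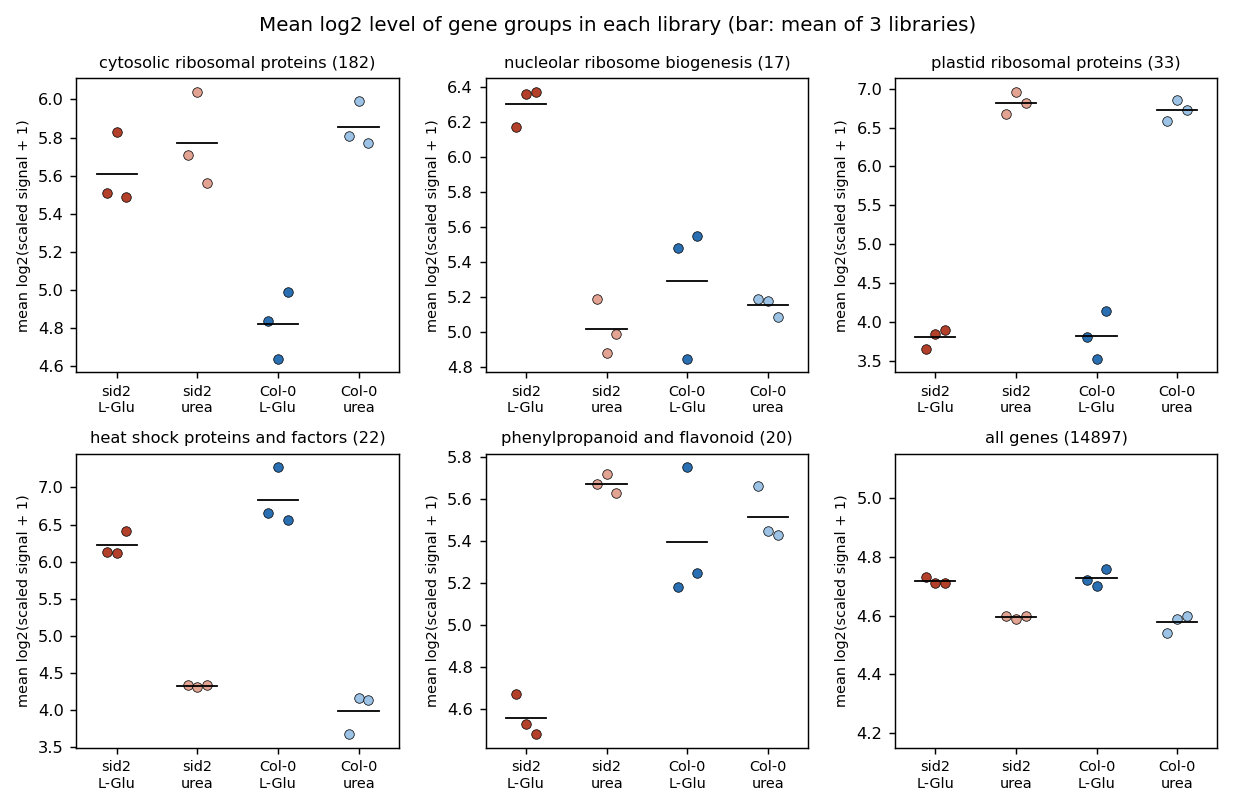
Mean log2(scaled signal + 1) of 5 gene groups and of all genes in each of the 12 libraries, with a bar at the mean of 3 libraries; vertical axes differ between panels. Cytosolic ribosomal proteins are lowest in the 3 Col-0 libraries with L-Glu, and Col-0 L-Glu library 2 is the lowest of its group for nucleolar genes and the highest for heat shock and phenylpropanoid genes.

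The single ribosomal protein gene that kept the call without any 1 library was AT1G77940 (chr1:29303864-29305411), of the L30e family of the large subunit. Its signal was 206, 238 and 189 in sid2 with L-Glu and 197, 169 and 160 in sid2 with urea. Col-0 libraries had 72.0, 73.0 and 106 with L-Glu and 229, 231 and 247 with urea. All 3 Col-0 libraries with L-Glu lay below the other 9. The difference was 1.74 (SE 0.267, adjusted p = 0.0073), from an effect of 0.26 in sid2 and -1.48 in Col-0. PGY1, an L10a protein of the large subunit known for a role in leaf patterning, differed by 1.44 (SE 0.258, adjusted p = 0.014), with effects of 0.29 in sid2 and -1.16 in Col-0.

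Other called members of the ribosome differed in form. AT5G16130, an S7e protein of the small subunit, had 256, 330 and 294 in sid2 with L-Glu, 347, 426 and 351 in sid2 with urea, 133, 138 and 179 in Col-0 given L-Glu and 463, 447 and 491 in Col-0 with urea. It was lowest in Col-0 with L-Glu, without overlap, and differed by 1.28 (SE 0.251, adjusted p = 0.0215). AT4G10450, an L6 family gene of the large subunit, rose in sid2 by 1.29 and fell in Col-0 by 0.68, a difference of 1.98 (SE 0.389, adjusted p = 0.0215). RPSAb, a small subunit protein, rose in both genotypes, by 3.83 in sid2 and 1.97 in Col-0. RACK1C and RACK1B, scaffold proteins that sit on the ribosome, differed by 2.04 and 1.86. RACK1C was counted in the broader nucleolar group described below and not among the cytosolic ribosomal proteins. Ribosomal protein genes come in small families of similar copies, and reads may have been divided between copies.

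The number of calls in the ribosome depended on single libraries more than the median did. From 27 with all libraries it was 11, 1 and 7 without sid2 L-Glu library 1, 2 and 3, and 3 and 2 without sid2 urea library 1 and 3. Omitting Col-0 L-Glu library 2 left 3 and omitting Col-0 urea library 2 left 10, while the other 5 omissions gave 22 to 33. Over the 12 omissions the median stayed between 0.77 and 1.05 and 171 to 177 estimates were above 0.

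Upstream sequence is shown for 4 called genes of the ribosome or the nucleolus that hold both a telo box and a site II element in the 250 bases before the gene start, out of 6 such genes among 48. They were picked for holding both and do not stand for the 48. The share of all windows with both was not counted. Capitals mark the telo box AAACCCTA and the site II element TGGGCC or TGGGCT on either strand. The windows are chr5:5268171-5268420 on the plus strand, chr2:16856772-16857021 on the minus strand, chr5:26938499-26938748 on the minus strand and chr1:20986953-20987202 on the minus strand, from RefSeq TAIR10.1, printed 5′ to 3′ on the strand of the gene.
AT5G16130: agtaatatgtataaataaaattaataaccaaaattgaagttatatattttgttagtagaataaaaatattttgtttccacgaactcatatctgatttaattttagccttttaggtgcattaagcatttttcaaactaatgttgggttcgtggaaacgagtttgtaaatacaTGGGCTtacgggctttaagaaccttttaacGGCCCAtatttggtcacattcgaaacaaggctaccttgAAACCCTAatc
AT2G40360: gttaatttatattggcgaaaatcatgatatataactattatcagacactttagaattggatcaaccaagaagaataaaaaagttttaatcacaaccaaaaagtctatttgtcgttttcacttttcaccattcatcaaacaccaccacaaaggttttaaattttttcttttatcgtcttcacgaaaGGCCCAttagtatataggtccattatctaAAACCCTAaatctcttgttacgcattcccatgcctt
AT5G67510: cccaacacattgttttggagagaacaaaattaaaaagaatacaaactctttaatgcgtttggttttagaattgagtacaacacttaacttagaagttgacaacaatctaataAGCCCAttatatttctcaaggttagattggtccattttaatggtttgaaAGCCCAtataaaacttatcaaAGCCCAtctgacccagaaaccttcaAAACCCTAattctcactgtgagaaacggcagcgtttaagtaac
NOP56: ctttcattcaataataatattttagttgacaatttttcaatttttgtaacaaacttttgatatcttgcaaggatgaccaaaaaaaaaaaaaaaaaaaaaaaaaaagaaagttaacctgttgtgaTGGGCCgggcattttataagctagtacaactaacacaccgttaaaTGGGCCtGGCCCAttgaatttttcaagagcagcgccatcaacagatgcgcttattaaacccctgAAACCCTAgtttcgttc
In these 4 windows the telo box lay 11, 36, 43 and 17 bases before the gene start, and in FIB1, which also holds both, it lay 207 bases before it. A site II match stood in 125 of the 182 cytosolic ribosomal protein windows (68.7%) and in 70.6% of the list of nucleolar genes, against 24.0% of 14818 windows over the table. It stood in 32.5% of the genes called higher in sid2, in 28.7% of those outside the ribosome and in 16% of those called lower. A telo box stood in 17% of the ribosomal protein windows, 12.0% of the genes called higher, 3% of those called lower and 3.46% of all. Within the ribosome the 27 called genes had a site II match in 55.6%. A match is a run of letters and not a measured site.

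Genes of ribosome assembly in the nucleolus rose with L-Glu in sid2 in 16 of 17 cases, and in Col-0 3 rose and 1 fell. All 17 listed genes were measured, 7 were called higher in sid2, 0 lower, and all 17 estimates were above 0. The median difference was 1.1, from a median effect of 1.27 in sid2 and 0.10 in Col-0. A broader group, 176 measured genes (190 annotated) with a nucleolus or rRNA processing note, had 20 called higher and 0 lower, a median of 0.36 and 122 estimates above 0.

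FIB2 (chr4:13074090-13076432) encodes fibrillarin, the methyltransferase of box C/D ribonucleoproteins that modifies rRNA. Its signal was 189, 259 and 149 in sid2 with L-Glu, 89.1, 96.0 and 99.1 in sid2 with urea, 51.7, 16.6 and 66.9 in Col-0 given L-Glu and 125, 140 and 101 in Col-0 with urea. The groups did not overlap, with sid2 under L-Glu highest and Col-0 under L-Glu lowest. FIB2 rose by 1.01 in sid2 and fell by 1.54 in Col-0, a difference of 2.55 (SE 0.473, adjusted p = 0.0168), and the call was lost without sid2 L-Glu library 2.

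NUC-L1, the major nucleolin, had 2004, 2315 and 2187 in sid2 with L-Glu, 643, 614 and 583 in sid2 with urea, 1295, 748 and 1088 in Col-0 given L-Glu and 714, 717 and 634 in Col-0 with urea. The sid2 libraries with L-Glu stood above all others, and the difference was 1.25 (SE 0.283, adjusted p = 0.0328). NOP56, a core protein of the same ribonucleoproteins as fibrillarin, differed by 1.22 (SE 0.302, adjusted p = 0.043). AT3G11964, named after the rRNA processing factor RRP5, differed by 1.35 (SE 0.285, adjusted p = 0.0261). TOZ, FIB1 and the NOP56-like gene AT3G05060 were the other called members, at 1.27, 1.07 and 1.1.

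PRMT3 (AT3G12270) encodes a protein arginine methyltransferase that acts in pre-rRNA processing. Its signal was 172, 202 and 177 in sid2 with L-Glu, 46.7, 56.0 and 47.1 in sid2 with urea, 56.9, 34.5 and 40.3 in Col-0 given L-Glu and 51.8, 51.6 and 57.5 in Col-0 with urea. The sid2 libraries with L-Glu stood alone above the other 9. The difference was 2.11 (SE 0.305, adjusted p = 0.00685), with effects of 1.81 in sid2 and -0.30 in Col-0, and it was called in all 12 omissions. PRMT10 and PRMT11, of the same enzyme family, were called at 1.6 and 1.35.

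Some further called genes, most of them chosen after their values were seen, are given one by one. NRPA1, the largest subunit of RNA polymerase I, differed by 1.31 (SE 0.306, adjusted p = 0.0374), and ATRPAC42, annotated as an RNA polymerase subunit, by 1.92 (SE 0.368, adjusted p = 0.0187). NAF1, an assembly factor of box H/ACA particles in yeast and human, differed by 1.81, and the GTPase gene NSN1 by 1.54. The plant nucleolar histone deacetylases HDA3 and HDT4 were called at 1.68 and 1.83. STRS1, an RNA helicase gene on none of the lists, rose by 1.09 in sid2 and fell by 0.63 in Col-0, a difference of 1.72 (SE 0.294, adjusted p = 0.0115). TRM82, similar to a yeast subunit of a tRNA methyltransferase and on none of the lists, had 65.6, 85.2 and 106 in sid2 with L-Glu against 11.1 to 40.4 in the other 9 libraries, and differed by 2.61 (SE 0.393, adjusted p = 0.00685).

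Without single libraries the nucleolar list gave fewer calls at a like median. It gave 2, 0 and 1 calls without sid2 L-Glu library 1, 2 and 3, 1 call without each of the sid2 urea libraries in turn, 1 without Col-0 L-Glu library 2, and 2 when Col-0 urea library 2 was omitted. The other 4 omissions gave 5 to 7. The median ranged from 0.93 to 1.28 and all 17 estimates were above 0 in every omission. Markers of dividing cells did not give a call: 6 of 9 were measured, 0 passed by limma, 1 had an unadjusted p under 0.05, and the median was 0.13. Their summed signal was 229 to 285 in sid2 with L-Glu, 154 to 205 in sid2 with urea, 291 to 299 in Col-0 given L-Glu and 198 to 260 in Col-0 with urea, so it was higher in Col-0 than in sid2 under L-Glu, and its part in the ribosomal differences was not tested.

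Other groups of translation were counted in the same way. Of 35 measured aminoacyl-tRNA ligases 2 were called higher, 29 estimates were above 0 and the median was 0.34, among them the lysyl enzyme ATKRS-1 at 1.3 (SE 0.297, adjusted p = 0.0344). Of 61 measured translation initiation factors 2 were called higher (3.28%, against 1.28% of all genes), a count too small to set apart from that share. In this group 38 estimates were above 0 and the median was 0.21. The 2 called genes were the eIF3 subunits EIF3E at 1.03 and EIF3G2 at 2.11. AT5G12110, annotated as elongation factor 1-beta 1, went the other way, at -2.35 (SE 0.427, adjusted p = 0.0156). Its effects were -1.50 in sid2 and 0.85 in Col-0.

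Enzymes of amino acid and purine synthesis stood among the called genes too, picked out after their values were seen. On the aspartate-derived pathway to lysine they were aspartate kinase AK-LYS1 (1.33), the semialdehyde dehydrogenase gene AT1G14810 (1.35), dihydrodipicolinate synthase DHDPS2 (1.21) and the decarboxylase gene AT3G14390 (1.47). For leucine there was IMD3 (1.59), an isopropylmalate dehydrogenase, which rose by 0.69 in sid2 and fell by 0.90 in Col-0. On purine synthesis there were AT2G37690 (1.76) and AT2G35040 (1.3). No count over these pathways was made.

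The called regulators of greening and light responses were higher in sid2. In the list of greening regulators 3 of 7 measured genes (10 listed) were called, all higher, with a median of 1.55. GATA17, a GATA transcription factor, had 223, 305 and 265 in sid2 with L-Glu, 32.3, 25.3 and 21.2 in sid2 with urea, 53.7, 28.8 and 55.0 in Col-0 given L-Glu and 22.6, 50.7 and 33.8 in Col-0 with urea. The sid2 libraries with L-Glu stood above all others, while the other 3 groups overlapped. GATA17 rose by 3.17 in sid2, and its difference of 2.83 was the highest among called genes (SE 0.409, adjusted p = 0.00685).

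HY5, a bZIP factor that promotes light-grown development, had 256, 317 and 268 in sid2 with L-Glu, 119, 152 and 144 in sid2 with urea, 104, 61.7 and 80.2 in Col-0 given L-Glu and 90.0, 129 and 144 in Col-0 with urea. It rose by 1.00 in sid2 and fell by 0.55 in Col-0, a difference of 1.55 (SE 0.312, adjusted p = 0.023). All 3 sid2 libraries with L-Glu stood above the other 9. Its homolog HYH differed by 1.5 (SE 0.364, adjusted p = 0.0397), and ELIP1, a photoprotective protein of the thylakoid, by 2.13 (SE 0.422, adjusted p = 0.0217). AT4G16141, another GATA factor, rose by 1.38 in sid2 and fell by 0.76 in Col-0, a difference of 2.14 (SE 0.362, adjusted p = 0.0115).

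A wider list of light signalling, put together after values were seen, had 5 of 25 measured genes (28 listed) called, all higher, with a median of 0.29 and 10 estimates below 0. Beside HY5 and HYH they were TZP, a zinc knuckle protein of phytochrome signalling (1.27), the B-box gene STH (1.81) and SPA4, a partner of the COP1 ubiquitin ligase (1.19). The photoreceptor genes PHYA, PHYB, CRY1 and CRY2 had estimates of -0.25, -0.28, 0.29 and -0.04 and were not called. The greening list gave 1 call when sid2 L-Glu library 2, sid2 urea library 1 or 3, or Col-0 L-Glu library 2 was omitted. The light list gave 0 calls without sid2 L-Glu library 2, sid2 urea library 3 or Col-0 L-Glu library 2, 1 without sid2 urea library 1, 2 without sid2 L-Glu library 1 or 3, and 3 without sid2 urea library 2, Col-0 urea library 2 or Col-0 urea library 3. Of 27 measured nuclear photosynthesis genes 0 were called higher and 1 lower, CAB2, a light-harvesting protein gene (-1.35, SE 0.318, adjusted p = 0.0374), against a list median of 0.28. Reads of near-identical light-harvesting copies may have been divided between them.

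Auxin repressors and a calcium sensor gave single large differences. IAA7, an Aux/IAA repressor of auxin responses, had 174, 198 and 135 in sid2 with L-Glu, 247, 292 and 235 in sid2 with urea, 25, 22.2 and 72.6 in Col-0 given L-Glu and 230, 285 and 310 in Col-0 with urea. It was lowest in Col-0 with L-Glu, and differed by 2.24 (SE 0.426, adjusted p = 0.0184). IAA2, of the same family, rose by 2.23 in sid2, with 0.52 in Col-0, and differed by 1.71 (SE 0.334, adjusted p = 0.0215). These were the 2 called genes of 12 measured Aux/IAA genes, whose median was 0.15. CML41, a calmodulin-like protein, had 1310, 1588 and 859 in sid2 with L-Glu, 289, 77.6 and 223 in Col-0 with L-Glu, and 35.3 to 113 in the 6 urea libraries. Its difference was 2.36 (SE 0.568, adjusted p = 0.0391). The call of CML41 was lost in 9 of the 12 omissions, against 3 for IAA7 and 4 for IAA2.

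**Figure D4:**
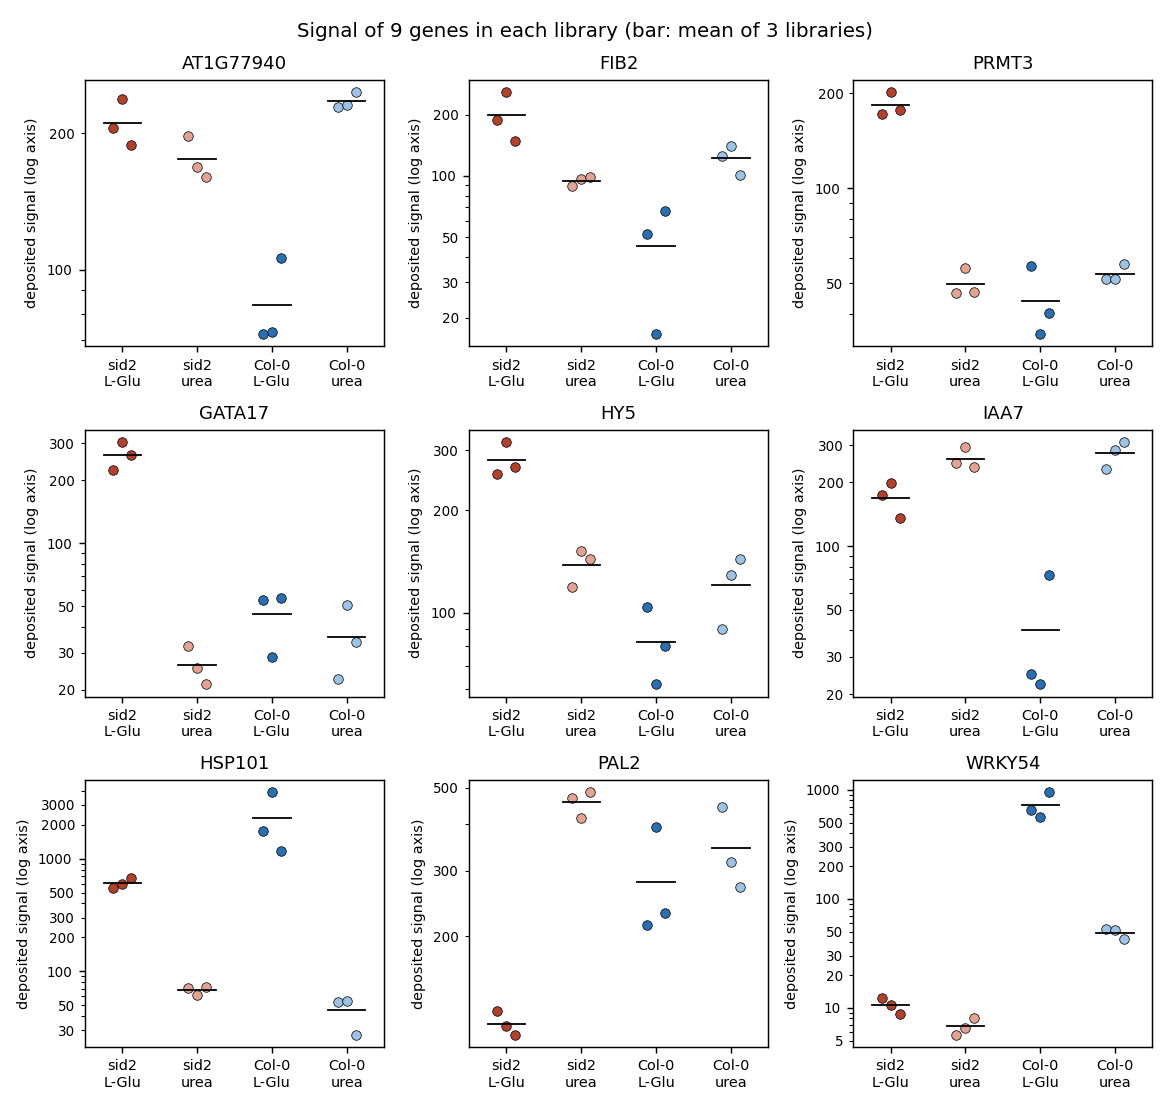
Deposited signal (log axis) of 9 genes in each library, with a bar at the mean of 3 libraries. The first 6 are lowest in Col-0 with L-Glu or highest in sid2 with L-Glu, HSP101 and WRKY54 are highest in Col-0 with L-Glu, and PAL2 is lowest in sid2 with L-Glu.

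Called heat shock genes rose less in sid2. The L-Glu effect was called higher in 17 of 22 measured genes in each genotype. Of these 22 members (32 listed) 5 were called lower and 0 higher, and the median difference was -1.06, from a median effect of 2.31 in sid2 and 2.95 in Col-0. Taken instead by symbol, the HSP and HSF genes had 29 measured members (40 annotated), of which 4 were called lower and 0 higher, with 11 estimates above 0 and a median of -0.65. HSP101, the disaggregase of heat tolerance, had 547, 591 and 676 in sid2 with L-Glu, 71.7, 62.2 and 72.6 in sid2 with urea, 1756, 3895 and 1175 in Col-0 given L-Glu and 53.1, 54.9 and 27.4 in Col-0 with urea. Each Col-0 library with L-Glu was above each sid2 library with L-Glu, and library 2 of Col-0 was the highest. The difference was -2.35 (SE 0.449, adjusted p = 0.0184). Hsp70b, a cytosolic HSP70 chaperone, rose by 3.34 in sid2 and 5.80 in Col-0, a difference of -2.46 (SE 0.412, adjusted p = 0.0115).

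The other called members were HSP90.1 (-1.86), HSP70 (-1.49) and the co-chaperone gene Hop3 (-1.51). HSP17.6A, a small heat shock protein, missed the threshold at -2.38 (SE 0.613, adjusted p = 0.051). Heat shock factors were not called, among them HSFA1D at 0.20, HSFA3 at -0.32 and HSFA7A at -1.08. The mean log2 level of the list was 6.13, 6.12 and 6.41 in sid2 with L-Glu, 4.33, 4.31 and 4.33 in sid2 with urea, 6.66, 7.27 and 6.56 in Col-0 given L-Glu and 3.67, 4.16 and 4.14 in Col-0 with urea. Without Col-0 L-Glu library 2 the median was -0.74 and 2 genes were called. The count was 2, 0 and 3 without sid2 L-Glu library 1, 2 and 3, 2, 3 and 1 without sid2 urea library 1, 2 and 3, and 2 without Col-0 urea library 2. The median ranged from -1.32 to -0.72.

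Phenylpropanoid genes, whose enzymes make lignin and flavonoid precursors, fell with L-Glu in 15 of 20 cases in sid2 and in 6 in Col-0, where 3 rose. Over all genes 32.4% were called lower in sid2, and in Col-0 30.3% were called lower and 29.7% higher. The Col-0 count of 6 is thus near the share over all genes. The phenylpropanoid list was drawn up after values were seen. For the difference, 5 of the 20 measured members (30 listed) were called lower and 0 higher, 19 estimates were below 0 and the median was -1.10, from median effects of -1.22 in sid2 and 0.01 in Col-0. PAL2, a phenylalanine ammonia-lyase at the entry of the pathway, had 126, 115 and 109 in sid2 with L-Glu, 471, 414 and 487 in sid2 with urea, 214, 392 and 231 in Col-0 given L-Glu and 445, 317 and 271 in Col-0 with urea. The sid2 libraries with L-Glu were below all others, while both Col-0 groups overlapped. The difference was -1.62 (SE 0.317, adjusted p = 0.0215).

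CCoAOMT1, a methyltransferase of lignin monomer synthesis, differed by -1.50 (SE 0.288, adjusted p = 0.0187). 4CL1, the coumarate ligase, was called at -1.39, flavonol synthase FLS1 at -1.32 and MYB63, an activator of lignin genes, at -1.97. PAL1 missed the threshold at -1.45 (adjusted p = 0.051), and TT4, the chalcone synthase gene, was at -0.37. The count of calls was 0 without sid2 L-Glu library 2 or sid2 urea library 1, 1 when sid2 urea library 3 or Col-0 L-Glu library 2 was omitted, and 2 without sid2 L-Glu library 3. It was 3 without sid2 urea library 2, Col-0 urea library 2 or Col-0 urea library 3, and 8 when Col-0 L-Glu library 1 was omitted, while the median ranged from -1.29 to -0.88.

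The next 3 called genes are on no list, and the third was chosen after its values were seen. RWP1, the feruloyl transferase of suberin, had 19.0, 13.5 and 8.90 in sid2 with L-Glu, 47.2, 58.4 and 65.2 in sid2 with urea, 44.0, 166 and 61.8 in Col-0 given L-Glu and 49.8, 44.6 and 75.1 in Col-0 with urea. It was lower in every sid2 library with L-Glu than in the other 9, and differed by -2.30 (SE 0.521, adjusted p = 0.0328). AT3G22620, a lipid-transfer protein gene, had 13.4, 12.6 and 9.82 in sid2 with L-Glu, against 34.1 to 158 in the other 9 libraries, and differed by -3.09 (SE 0.48, adjusted p = 0.00745). AT2G39430, a dirigent-like gene, differed by -1.88 (SE 0.389, adjusted p = 0.0245).

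Root markers themselves gave 0 calls by limma, and 1 had an unadjusted p under 0.05. Of 9 listed 6 were measured, none at 0 in any library. Of these, 5 estimates were below 0 and the median was -0.61, with SHR at -0.80 (adjusted p = 0.258). Their summed signal was 3387 to 4191 in sid2 with L-Glu, 2863 to 3535 in sid2 with urea, 4480 to 9265 in Col-0 given L-Glu and 2710 to 4183 in Col-0 with urea. The highest sum was that of Col-0 L-Glu library 2, the library highest for heat shock and phenylpropanoid genes and lowest for ribosomal genes within its group. The part of root tissue in these differences was not tested.

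Genes of SA synthesis rose with L-Glu in both genotypes, 8 of 9 in sid2 and 9 of 9 in Col-0. Their difference was called by limma in 0 of the 9 measured genes (13 listed), 2 had an unadjusted p under 0.05, and the median was 0.32. The smallest p was that of SARD1, a transcriptional activator of SID2, at 1.36 (SE 0.369, adjusted p = 0.0608). The sid2 minus Col-0 difference of SARD1 was -0.51 under L-Glu (not called) and -1.86 under urea (called). Of 15 measured SA perception and response genes (26 listed) 1 was called higher and 1 lower, with a median of -0.04. Their median sid2 minus Col-0 difference was -0.59 under L-Glu, where 1 was called higher and 5 lower. Under urea it was -0.68, with 0 called higher and 4 lower. Over all genes 6.04% were called lower in sid2 under L-Glu and 0.181% under urea. In the difference of effects the receptor genes NPR1, NPR3 and NPR4 were at 0.34, 0.25 and 0.61 and were not called.

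WRKY54 (chr2:17000419-17002528), a transcription factor gene of SA responses, gave the largest difference of all called genes. Its signal was 12.4, 10.7 and 8.84 in sid2 with L-Glu, 5.68, 6.49 and 8.13 in sid2 with urea, 657, 568 and 953 in Col-0 given L-Glu and 52.4, 51.3 and 42.8 in Col-0 with urea. The sid2 libraries lay near the lowest signals in the table and far below Col-0 under both treatments. WRKY54 rose by 3.77 in Col-0 and had an effect of 0.46 in sid2 (adjusted p = 0.103), a difference of -3.31 (SE 0.344, adjusted p = 0.000184). Its sid2 minus Col-0 difference was -5.66 under L-Glu and -2.35 under urea, and it was the 1 gene of the 291 called under both treatments. Fold changes of such low values depend on the added constant.

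Other WRKY genes went different ways. WRKY18, a regulator of basal defence, had 1112, 1028 and 802 in sid2 with L-Glu, 71.6, 116 and 78.5 in sid2 with urea, 547, 347 and 642 in Col-0 given L-Glu and 143, 118 and 167 in Col-0 with urea. It was highest in sid2 with L-Glu and differed by 1.64 (SE 0.335, adjusted p = 0.0245). WRKY30 had 4113, 3560 and 4061 in sid2 with L-Glu and 13958, 10663 and 14268 in Col-0 with L-Glu, against 1.26 to 6.72 in the 6 urea libraries, and differed by -1.72 (SE 0.355, adjusted p = 0.0245). WRKY70, close to WRKY54 in sequence and function, was at 1.36 (adjusted p = 0.0624), and WRKY46 and WRKY53 were at -0.04 and -0.30. Over 43 measured WRKY genes 1 was called higher and 2 lower, with a median of -0.14.

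Over 5 lists of immune genes beyond SA, 1 of 60 measured genes was called (1.67%), near the 1.95% called among all genes. None of 21 measured genes of pattern-triggered immunity was called by limma and 6 had an unadjusted p under 0.05, with a median of -0.09 and the smallest adjusted p at PEPR2 (-1.49, adjusted p = 0.0897). Among 15 jasmonate genes 1 was called lower, LOX3, a lipoxygenase of jasmonate synthesis (-1.03, SE 0.248, adjusted p = 0.0393), though it rose in both genotypes, by 4.75 in sid2 and 5.78 in Col-0. None of the 10 camalexin and indole glucosinolate genes, the 9 ethylene genes or the 5 aliphatic glucosinolate genes was called by limma, with 2, 1 and 0 at an unadjusted p under 0.05. That level was reached by 2511 of all 14897 genes. Named single genes were AIG1, a GTPase gene induced by bacterial avirulence (2.11), LecRK-I.9, the extracellular ATP receptor (-1.44), and CRT3, a calreticulin of receptor quality control (-1.14).

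A small set of 21 called genes differed more between the genotypes under urea than under L-Glu, 13 of them with a higher effect in sid2. SAG13, a senescence-associated gene, had 58.8, 72.0 and 55.4 in sid2 with L-Glu, 12.2, 26.3 and 31.6 in sid2 with urea, 71.6, 48.7 and 82.4 in Col-0 given L-Glu and 102, 96.5 and 71.4 in Col-0 with urea. The genotypes overlapped under L-Glu and not under urea, where sid2 was lower. Its genotype difference was -0.09 under L-Glu and -1.86 under urea, which gives a difference of effects of 1.77 (SE 0.41, adjusted p = 0.0357). CYP81D8, a cytochrome P450 gene of oxidative stress, had 8.41, 8.95 and 10.5 in sid2 with urea and 30.5, 31.3 and 41.0 in Col-0 with urea, and overlapped between the genotypes under L-Glu. Its difference of effects was 1.32 on the log2 scale (SE 0.298, adjusted p = 0.0328) and turned to -4.51 on a square root scale (adjusted p = 0.736).

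RK3, a receptor kinase gene, and AT1G26380, an oxidase gene of the berberine bridge family, also overlapped between the genotypes under L-Glu and were lower in sid2 under urea, with differences of -1.19 and -1.17, called in each. The chitinase gene ChiC had 372, 536 and 403 in sid2 with L-Glu and 321, 238 and 282 in Col-0 with L-Glu, against 28.7, 20.9 and 23.7 in sid2 with urea and 64.3, 62.7 and 41.8 in Col-0 with urea. Its genotypes did not overlap under either treatment, with sid2 higher under L-Glu (0.63, not called) and lower under urea (-1.08, called). WAKL4, a wall-associated kinase-like gene, and AT4G22470, a lipid-transfer protein gene, were higher in sid2 under urea by 0.94 and 1.37.

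Nitrogen genes held 2 called members of 15 measured, both lower, with a list median of -0.24. NIR1, nitrite reductase, had 57.5, 51.9 and 72.6 in sid2 with L-Glu, 468, 464 and 471 in sid2 with urea, 72.1, 84.2 and 119 in Col-0 given L-Glu and 282, 348 and 292 in Col-0 with urea. It was higher in sid2 than in Col-0 with urea, while the ranges overlapped with L-Glu, and differed by -1.16 (SE 0.283, adjusted p = 0.0406). The ammonium transporter gene AMT1;2 differed by -1.36 (SE 0.333, adjusted p = 0.0414). The calls of NIR1 and AMT1;2 were each lost in 10 of the 12 omissions. NRT1.5, a nitrate transporter of xylem loading that was not on the list, fell by 3.85 in sid2 and by 2.27 in Col-0, a difference of -1.58 (SE 0.291, adjusted p = 0.0168).

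Genes that handle glutamate itself gave 0 calls by limma. In 20 measured genes that make or use glutamate, glutamine, asparagine or proline, 3 had an unadjusted p under 0.05, the median was -0.21 and the smallest adjusted p was 0.0834 at ASN3, an asparagine synthetase gene (1.2). Of 10 glutamate receptor-like genes 2 had an unadjusted p under 0.05, the median was 0.04 and the smallest adjusted p was 0.182 at GLR2.5 (0.75). The 11 clock genes (median 0.31, 3 at an unadjusted p under 0.05) and the 7 control genes (median -0.12, 0 at that level) had 0 calls by limma as well. Seed storage genes were 0 of 5 measured. With a median SE of 0.35, smaller differences in these genes may have gone undetected.

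**Figure D5:**
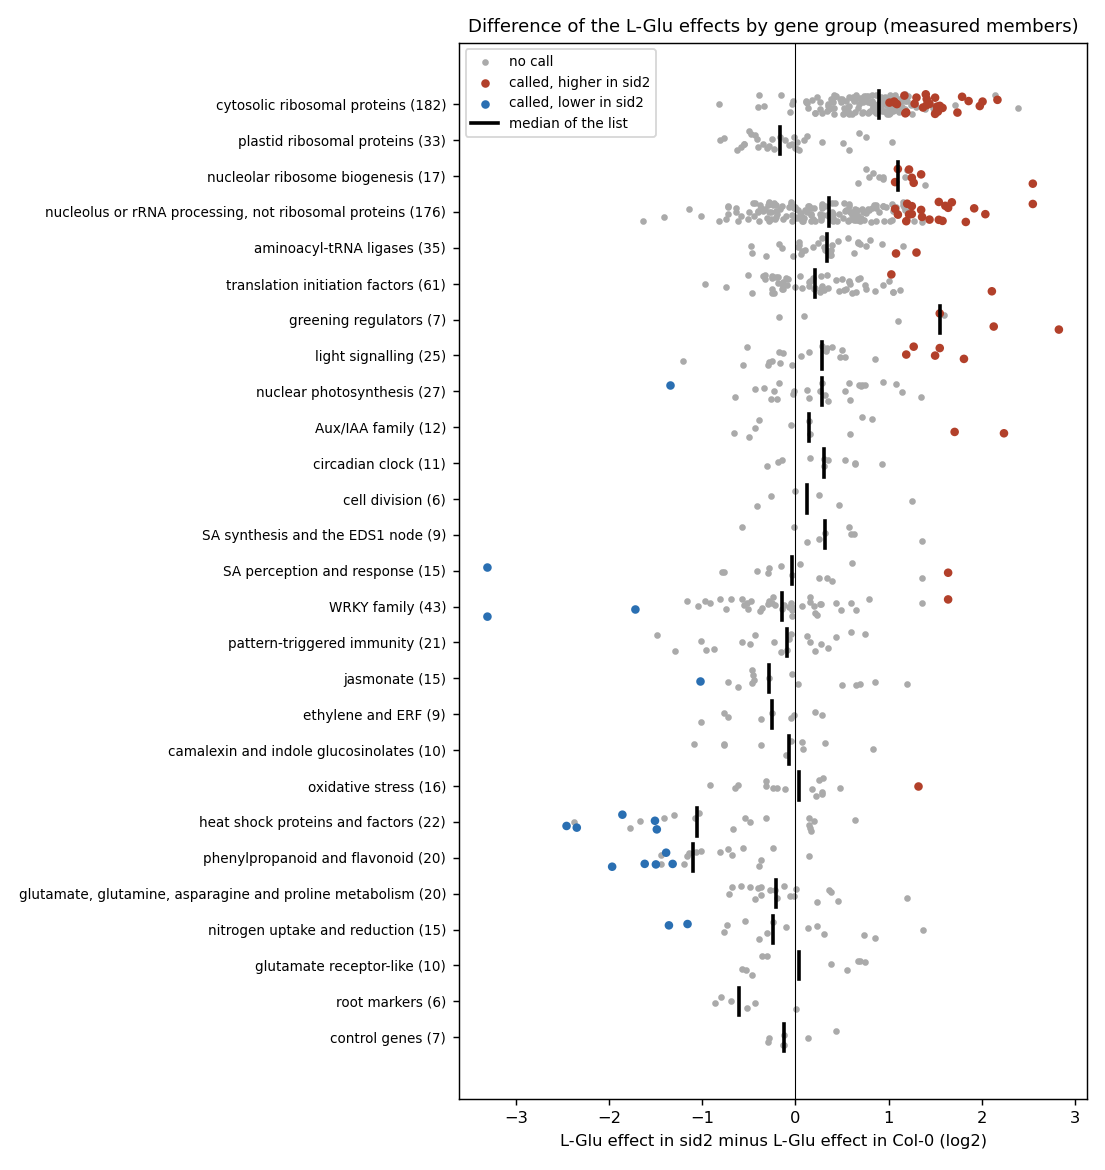
Difference of the L-Glu effects (sid2 minus Col-0, log2) for the measured members of 27 gene groups, 1 point per gene, with a black bar at the group's median and the number of measured members in brackets. Cytosolic ribosomal, nucleolar and greening genes lie right of 0, heat shock and phenylpropanoid genes left of it, and most other groups are centred near 0.

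The remaining genes that kept the call without any 1 library belong to none of these groups. AT3G28160, an uncharacterized gene, had 264, 279 and 158 in sid2 with L-Glu, 199, 160 and 177 in sid2 with urea, 43.2, 27.8 and 50.9 in Col-0 given L-Glu and 143, 180 and 164 in Col-0 with urea. It was lowest in Col-0 with L-Glu and differed by 2.29 (SE 0.338, adjusted p = 0.00685). GYRB1, a DNA gyrase subunit, had 102, 94.3 and 102 in sid2 with L-Glu, 93.2, 77.3 and 81.6 in sid2 with urea, 305, 265 and 255 in Col-0 given L-Glu and 66.9, 40.8 and 76.3 in Col-0 with urea. It rose in Col-0, where L-Glu libraries stood above all others, and differed by -1.91 (SE 0.303, adjusted p = 0.00896). AT1G66180, an aspartyl protease gene, fell by 2.72 in sid2 and by 0.75 in Col-0, a difference of -1.97 (SE 0.297, adjusted p = 0.00685).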

How the data were processed

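RNA from whole seedlings was sequenced by the authors, who deposited 1 table of normalized signal per gene and library. The genome build TAIR10 and the tools edgeR 3.22.3, HTSeq 0.6.0, TopHat and TopHat2 2.1.0 are named in the submitters' processing notes, with no role given. The deposited signal is neither whole counts nor CPM. Its normalization and the use of strand in counting are not given in the sources used here, so overlapping antisense reads may be included. Genes with low urea values may have entered the table through their L-Glu values alone.

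Values were divided by 3.492, so that library totals average those of CPM values, and a pseudocount of 1 scaled unit was added for log2. A fold change is on this log2(value + 1) scale, which understates changes of low genes. Requiring a mean of at least 1 scaled unit left out 0 genes. A model of 4 group means was fitted across the 12 libraries (limma 3.58.1, R 4.3.3), with an intensity trend and 8 residual degrees of freedom. All tests were two-sided, with Benjamini-Hochberg adjustment over all 14897 genes and a threshold of 0.05. The fit was tested on simulated data with independent noise in each library, which cannot show how deviations shared between libraries affect the calls. Alternatives were other pseudocounts (0.1 and 5), filters, scalings and variance settings, replicate blocks, and each library left out.

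Members and lists were chosen with earlier results of these data known. Symbols, notes and coordinates came from the RefSeq TAIR10.1 annotation, which held 14819 of the 14897 identifiers. The ribosomal protein groups and the broader nucleolar group of 176 measured genes were taken from the function and location notes. Product names do not separate the compartments. The list of 17 nucleolar genes did not come from these notes and was a list of chosen members. The naming rule took SID2 and the 10 highest and 10 lowest called differences where the mean was 5 scaled units or more. It also took the genes that kept the call in every omission and up to 4 called members per list (or the member with the smallest p). Last, it took the 5 opposite-direction genes with the smallest p. Of the genes taken by the rule, the text prints a selection. The rule also names PR1, which was not analysed here. Other called genes named by function were chosen after their values were seen. All columns of the table were used.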

Additional observations from a re-analysis of the deposited data

Results flagged for a closer look

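The L-Glu effect differed between sid2 and Col-0 by the test of the interaction itself in 291 genes. The 9 genes that were called with all libraries and in each of the 12 omissions are given here for that reason. WRKY54 differed by -3.31, AT3G22620 by -3.09, AT1G66180 by -1.97 and GYRB1 by -1.91, all with a lower effect in sid2. GATA17 differed by 2.83, TRM82 by 2.61, AT3G28160 by 2.29, PRMT3 by 2.11 and AT1G77940 by 1.74, all with a higher effect in sid2.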

How the results depend on the processing

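All 291 called genes kept the sign of their difference under every alternative fitted to them except the square root scale, where 290 did. The genes were called from the same libraries, so a kept sign was likely beforehand. On the square root scale CYP81D8 reversed, at -4.51 (adjusted p = 0.736). The count of 291 (191 higher, 100 lower) was 453 with a pseudocount of 5 (173 lower), 205 with 0.1, 153 with quantile normalization (100 higher, 53 lower), 642 on the square root scale (397 and 245), 143 without the intensity trend (87 and 56) and 627 with array weights (390 and 237). The array weight was lowest for Col-0 urea library 1, at 0.331, against 0.665 to 1.64 for the other 11 libraries. With each library scaled to 1 total, 415 genes were called, 344 of them higher. That scaling moved the median of all genes from -0.04 to 0.08, and the share of calls higher in sid2 from 65.6% to 82.9%. Leaving out 1 library gave 9 to 367 calls, 5 to 247 higher and 4 to 128 lower. The square root scale gives no list medians on the log2 scale, and under the other settings the ribosomal median ranged from 0.83 to 1.03. Over the 79 named genes, 304 of 948 omission values lost the call and 3 gained it, and of 947 values under the other alternatives 64 lost it and 15 gained it. With a replicate block shared by the 4 groups 426 genes were called (263 higher, 163 lower), and with a replicate block within genotype 498 (301 higher, 197 lower). Same-numbered libraries correlated at -0.11 to 0.29 in their deviations, over 0.1 in 9 of 18 pairs, and the own number was highest in 13 of 18. All 3 pairs were over 0.1 between sid2 L-Glu and sid2 urea (0.12, 0.29 and 0.2) and between sid2 urea and Col-0 urea (0.13, 0.22 and 0.2), a hint from the data of a shared replicate. Between Col-0 L-Glu and Col-0 urea they were 0.09, 0.03 and 0.06. The labels give no meaning to the number and not every pair passed 0.1, so the fit without the block was kept. The cause of these changes was not tested. Read depth is unknown, and the median SE of the difference was 0.35.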
